A study of Mus musculus with 17 samples.

Results

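Solute carriers are membrane proteins that move amino acids, sugars, ions, metals, vitamins, nucleotides and lipids across the plasma membrane and the membranes of organelles such as lysosomes and the Golgi. Macrophages and the osteoclasts they form depend on them for nutrient supply, for emptying lysosomes and for moving the bicarbonate, chloride and phosphate that accompany acid secretion onto bone. This account describes the solute carriers with Slc and Slco symbols outside the mitochondrial Slc25 family, by substrate class, in macrophages and preosteoclasts from mice with and without a myeloid deletion of Bap1, the gene of a deubiquitinase that removes ubiquitin from histone H2A. The members were the genes with such a symbol whose deposited value exceeded 1 CPM, a read count scaled to library size, in at least 4 of the 17 libraries, which gave 164 of the 41388 genes in the tables.

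In all, 346 genes had a matching symbol outside Slc25. Of these, 15 were set aside by name, all of them above the CPM limit, and 167 fell below it, 19 of them with no count in any library. The members were thus chosen by their deposited CPM and by no comparison between groups, while the 15 names were set aside with earlier results known. Of the members, 135 members exceeded 1 CPM in all 17 libraries. Another 7, among them Slc14a2, Slc6a17, Slc6a13 and Slc4a8, did so in no BMM library, and 2, Slc14a1 and Slc39a12, in no preOC library. These became members only through the state where they were high, so their RANKL changes below describe them and are no independent test, though they are counted. Just inside the limit lay Slc1a2, a glutamate transporter, with 4 libraries above 1 CPM, all of them Bap1LysM preOCs, and a median of 0.561 CPM. Just outside it lay Slc52a3 (median 0.531 CPM) and Slc9b1 (median 0.606 CPM), with 3 libraries each. A further 6 members, among them Slc9a3r1 and Slc9a3r2, carry the symbol but are not carriers, being scaffold proteins, RNA-related proteins or pseudogenes, and they were kept as a class of their own.

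RNA was sequenced from bone marrow-derived macrophages (BMMs) grown in M-CSF, the cytokine that sustains macrophages, and from preosteoclasts (preOCs), the same kind of culture given M-CSF and RANKL, the cytokine that starts osteoclast formation, at 100 ng/ml for 24 h. Bap1flox cells came from mice with floxed Bap1 alleles and no Cre, and Bap1LysM cells from mice that also carried Cre in the lysozyme M gene, Lyz2, which is active in myeloid cells. There were 3 BMM libraries of each genotype, 6 Bap1flox preOC libraries and 5 Bap1LysM preOC libraries (replicates 1, 2 and 4 to 6), and the preOCs came from male mice aged 20 weeks. Sources gave no age for the BMMs and did not say whether BMM and preOC libraries with the same number shared an animal.

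Library totals lay between 37967542 and 61369441 counts. Bap1 itself, counted over the whole gene, was at 82.1 to 84.4 CPM in Bap1flox and 74.8 to 77.1 CPM in Bap1LysM BMMs, and at 70.3 to 97.1 and 55.9 to 87.7 CPM in the preOCs, so this count does not show the deletion. The osteoclast list (10 genes, among them Acp5, Ctsk and Dcstamp) summed to 238 to 384 CPM in the BMMs and to 6050 to 16500 CPM in the preOCs. The lowest preOC sums lay in library 1 of each genotype, 6050 CPM in Bap1LysM and 6660 CPM in Bap1flox. Erythroid markers stayed at or below 0.615 CPM. Of 8 macrophage markers, 7 fell and 1 rose with RANKL in Bap1flox cells, and in preOCs 2 were higher in Bap1LysM and 0 lower by edgeR. The stromal list summed to 1200 to 2030 CPM in Bap1flox preOC replicates 1 to 3, 200 to 341 CPM in replicates 4 to 6 and 106 to 1290 CPM in Bap1LysM preOCs. In BMMs it summed to 520 to 2890 CPM in Bap1flox and 386 to 1340 CPM in Bap1LysM. In Bap1LysM preOCs the neutrophil list summed to 170 to 604 CPM against 62.0 to 179 CPM in Bap1flox, with 6 of 7 tested genes higher and Ly6g near 0, and the B and plasma cell list to 33.1 to 82.2 against 9.44 to 21.9 CPM, with 3 of 4 tested genes higher. The part of these cells in the carrier differences was not tested. In bulk libraries fewer cells of a type and less RNA per cell cannot be told apart. Lyz2, which the Cre allele interrupts, was at 0.146 to 0.436% of the Bap1flox mean in 6 of 8 Bap1LysM libraries. It was at 75.1% in the preOC library 1 and at 42.8% in the BMM library 1. The paper describes the deleted mice as LysMCre+/-, which leaves 1 Lyz2 allele uninterrupted, whereas the 6 libraries held almost no Lyz2 RNA. The number of Cre alleles is thus in doubt for all 8 libraries and was not tested. All are called Bap1LysM after their labels, and the main counts are also given without the 2 libraries 1. PreOC replicates 4 to 6 had a higher mitochondrial share (2.36 to 5.26%) than the other libraries (0.481 to 1.07%). The library set enters as a batch only in alternative fits below. The main preOC test, which gave the values of named members, held no term for it.

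Levels were compared between genes per length, as RPKM, read counts per kilobase of transcript and library size, scaled by TMM, a factor that aligns the bulk of genes between libraries. In Bap1flox BMMs the 10 highest of 164 members held 45.7% of the summed RPKM, and the median member was at 5.14 RPKM. The leading genes were Slc48a1, which exports heme from lysosomes (328 ± 23.6 RPKM, SD, n = 3), and Slc6a6, the taurine transporter (234 ± 29.1 RPKM). The neutral amino acid transporter Slc43a2 followed at 118 ± 23.2 RPKM. In Bap1flox preOCs (n = 6) Slc6a6 led at 178 ± 17.8 RPKM, before Slc48a1 at 124 ± 12.3, the glucose-6-phosphate exchanger family member Slc37a2 at 113 ± 18.2 and the zinc importer Slc39a1 at 100 ± 8.31 RPKM. Neighbours in this order from Slc48a1 to Slc39a1 lay within the sum of their SDs.

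Summed by class, the vitamin and heme carriers changed most with RANKL, from 385 to 445 RPKM in the 3 Bap1flox BMM libraries to 144 to 183 RPKM in the 6 preOC libraries, with no overlap. The amino acid and peptide carriers went from 392 to 439 RPKM to 298 to 325 RPKM, again without overlap, although single members rose. The anion and phosphate carriers lay at 125 to 138 RPKM in BMMs and at 137 to 159 RPKM in preOCs, with a slight overlap. The transmitter and osmolyte carriers, of which Slc6a6 was the highest, lay at 240 to 278 RPKM in Bap1flox preOCs and at 306 to 348 RPKM in Bap1LysM preOCs, without overlap. The sodium, proton and calcium carriers (94.9 to 113 against 116 to 125 RPKM) did not overlap either. Nor did the fatty acid, choline and lipid carriers, which were lower in Bap1LysM preOCs (117 to 150 against 79.4 to 115 RPKM). The Slc35 family, which holds the nucleotide sugar carriers of the Golgi and members with other or no assigned substrates, lay at 255 to 265 and 227 to 267 RPKM. Such sums follow the highest member of each class, so the counts of members are given next.

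The promoters of members at the centre of the results are shown first, since these genes are described by their change with RANKL. They come from RefSeq (GRCm38.p6), each as the 200 bases before the transcription start on the gene's strand, 5′ to 3′. Of 164 members, 123 had an entry and 105 had a start within 200 bases of the deposited gene's. Capitals mark matches, on either strand, to TGANTCA, the letters read by AP-1 factors, to CACGTG, an E-box, or to GAGGAA, the core read by PU.1. AP-1 and PU.1 are known for their roles in osteoclasts and macrophages. The first 4 genes were raised by RANKL, and the last 2 were lowered by RANKL and were higher in Bap1LysM preOCs.
Slc9b2 (chr3:135307500-135307699, plus strand): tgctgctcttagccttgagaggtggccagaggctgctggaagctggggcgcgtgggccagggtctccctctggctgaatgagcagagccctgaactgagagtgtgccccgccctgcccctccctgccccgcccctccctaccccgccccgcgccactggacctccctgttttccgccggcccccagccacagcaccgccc
Slco4a1 (chr2:180456045-180456244, plus strand): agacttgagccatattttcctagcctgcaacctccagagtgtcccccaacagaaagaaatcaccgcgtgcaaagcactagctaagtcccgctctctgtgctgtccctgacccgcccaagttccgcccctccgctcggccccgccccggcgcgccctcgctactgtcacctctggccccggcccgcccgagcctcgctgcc
Slc45a3 (chr1:131962715-131962914, plus strand): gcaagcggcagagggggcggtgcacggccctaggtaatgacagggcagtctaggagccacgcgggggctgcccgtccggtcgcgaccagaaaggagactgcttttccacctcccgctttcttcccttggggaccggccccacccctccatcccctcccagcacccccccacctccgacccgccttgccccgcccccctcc
Slc6a17 (chr3:107518019-107518218, minus strand): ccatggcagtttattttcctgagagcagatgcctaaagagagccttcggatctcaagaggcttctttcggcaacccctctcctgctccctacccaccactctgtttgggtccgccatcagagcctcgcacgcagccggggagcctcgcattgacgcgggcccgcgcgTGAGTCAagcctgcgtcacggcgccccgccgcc
Slc9a9 (chr9:94669692-94669891, plus strand): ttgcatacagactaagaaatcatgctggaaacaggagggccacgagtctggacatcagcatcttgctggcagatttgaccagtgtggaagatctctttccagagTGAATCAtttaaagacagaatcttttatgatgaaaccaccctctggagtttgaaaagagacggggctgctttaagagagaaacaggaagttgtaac
Slc22a23 (chr13:34345219-34345418, minus strand): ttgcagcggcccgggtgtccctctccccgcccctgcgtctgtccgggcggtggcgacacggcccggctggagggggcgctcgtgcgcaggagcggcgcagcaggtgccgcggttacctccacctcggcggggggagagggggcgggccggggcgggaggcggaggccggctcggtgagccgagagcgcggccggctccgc

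Of the RANKL-raised genes shown, only Slc6a17 held a match, TGANTCA at 33 to 27 bases before the start, and Slc9a9, which fell with RANKL, held the same letters at 96 to 90 bases. Over the members with a window, TGANTCA was found in 3 of 30 that rose with RANKL (10%), 3 of 50 that fell (6%) and 5.48% of all 32851 RefSeq windows of this length. CACGTG was found in 3 of 30 (10%), 7 of 50 (14%) and 5.26% of all windows, and GAGGAA in 4 of 30 (13.3%), 11 of 50 (22%) and 19% of all windows. With so few windows each share rests on a handful of genes.

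RANKL changed most solute carriers. In Bap1flox cells (replicates 1 to 3 of each state), 46 of 162 tested members rose and 73 fell (edgeR's quasi-likelihood test, Benjamini-Hochberg adjusted over all genes tested, threshold 0.05). Over all 13412 genes tested, 64.6% were called, 31.7% higher and 32.9% lower, against 73.5% of the members. The median log2 fold change of members was -0.25, against -0.05 for all genes. With the 15 carriers set aside, 56 rose and 77 fell. A change of at least 10-fold was seen in 6 members that rose and 5 that fell. Among them were Slc14a2, Slc6a13 and Slc6a17, members through preOC libraries alone, and Slc14a1, a member through BMM libraries alone. Slco2b1, also among them, passed the low-count filter of this comparison through BMM libraries alone. Changes of this size were not counted over all genes, so the counts do not set carriers apart from other genes.

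**Figure D1:**
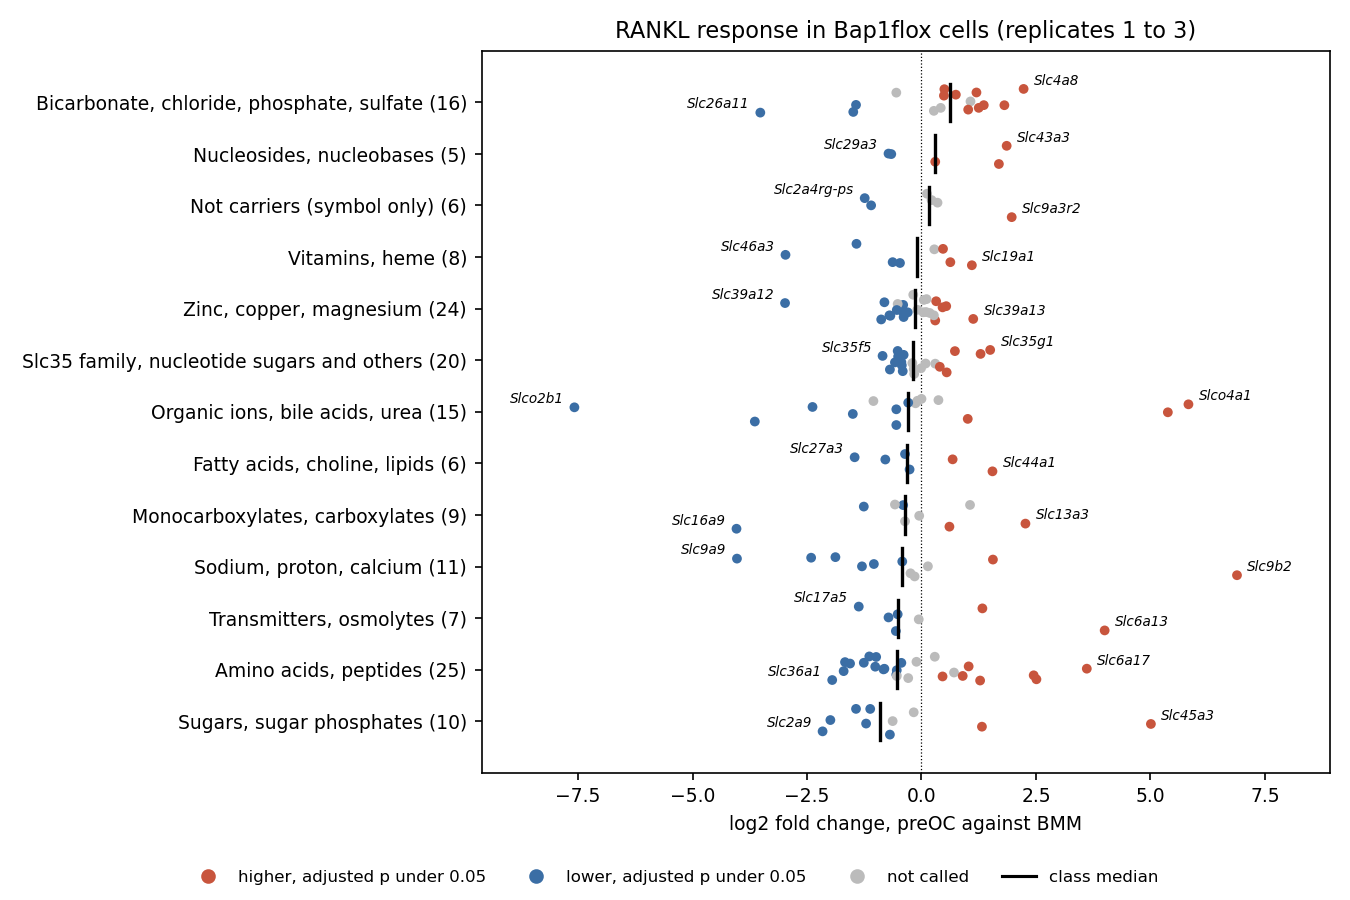
Log2 fold change of each tested member between Bap1flox preOCs and BMMs (replicates 1 to 3, horizontal axis) by substrate class (vertical axis, number tested in parentheses), with red and blue for members higher and lower at an adjusted p under 0.05, grey for the rest and a black line at each class median. Slc14a2 is drawn at its lower bound, the anion and phosphate class has the highest median (0.63) and the sugar class the lowest (-0.90).

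The largest rises belonged to carriers of different substrates. Slc9b2, a sodium and proton exchanger of osteoclasts also called NHA2, was at 1.22, 1.10 and 0.646 CPM in the Bap1flox BMMs and at 98.7, 137 and 124 CPM in the matching preOCs, a log2 fold change of 6.89 ± 0.24 (SE, adjusted p = 3.3e-06, edgeR). The groups lay far apart. Slco4a1, an organic anion transporter that takes up thyroid hormone, went from 1.62, 1.57 and 1.90 CPM to 124, 79.1 and 90.8 CPM (log2 fold change 5.83 ± 0.22, adjusted p = 4.3e-06). Slc45a3, a sugar transporter, went from 0.572, 1.14 and 1.15 CPM to 26.6, 32.2 and 34.9 CPM (5.01 ± 0.26, adjusted p = 1.1e-05). The urea transporter Slc14a2 had no count in any of the 6 BMM libraries and was at 1.98, 2.99 and 2.73 CPM in the Bap1flox preOCs, at least 41.6-fold higher when BMMs are set at 3 counts per library. Slc14a2 became a member through preOC libraries alone, so its rise is a description and no test. All these genes stood higher in every preOC library than in any BMM library, as the plot of members by library shows for the first 3.

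Amino acid carriers moved in both directions. Of 25 tested, 7 rose and 13 fell. The glutamine transporter Slc1a5 rose from 33.8, 44.8 and 46.4 CPM to 213, 242 and 240 CPM (log2 fold change 2.45 ± 0.13, adjusted p = 1.2e-05, edgeR). The cationic amino acid transporter Slc7a1, which takes up arginine and lysine, rose by 2.51 ± 0.22 on the log2 scale and the transporter Slc6a17 of neuronal vesicles by 3.61 ± 0.27. Slc7a5, the large neutral amino acid transporter, had 11.2, 36.3 and 42.4 CPM in BMMs and 73.6, 68.1 and 79.9 CPM in preOCs (1.28 ± 0.43, adjusted p = 0.033), with 1 BMM library well below the others. Among those that fell, Slc36a1, which exports small amino acids from lysosomes together with protons, went from 219, 172 and 173 CPM to 45.4, 50.7 and 52 CPM (-1.95 ± 0.11, adjusted p = 1.8e-05). Slc43a2 went from 1450, 1010 and 1080 CPM to 411, 397 and 417 CPM (-1.56 ± 0.14, adjusted p = 8.9e-05), and Slc7a8 fell by 1.01 ± 0.23.

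The bicarbonate, chloride, phosphate and sulfate carriers rose more often than they fell, with 9 of 16 higher and 3 lower (class median log2 fold change 0.63). Slc4a2, the chloride and bicarbonate exchanger of osteoclasts, went from 91.7, 89.3 and 89.0 CPM to 204, 256 and 243 CPM (1.36 ± 0.09, adjusted p = 2.6e-05, edgeR). The sodium-dependent bicarbonate transporters Slc4a7 and Slc4a8 rose by 1.81 ± 0.31 and 2.23 ± 0.27, Slc4a8 from 0.305, 0.269 and 0.343 CPM in BMMs to 1.79, 1.30 and 1.32 CPM in preOCs. Both phosphate importers of the Slc20 family rose, Slc20a1 by 1.25 ± 0.12 and Slc20a2 by 1.20 ± 0.10. Slc26a11, a sulfate and chloride transporter of lysosomes, went the other way, from 147, 106 and 121 CPM to 9.13, 12 and 11.9 CPM (-3.52 ± 0.17, adjusted p = 9e-06).

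Members that fell included carriers of the endosome and lysosome. Slco2b1, an uptake transporter of steroid sulfates, had the largest fall, from 91.7, 110 and 126 CPM to 0.504, 0.650 and 0.573 CPM (log2 fold change -7.58 ± 0.18). It passed the low-count filter of this comparison only through BMM libraries, so its fall is a description and no test. The endosomal proton exchanger Slc9a9 went from 294, 239 and 274 CPM to 16.5, 16.7 and 17 CPM (-4.03 ± 0.09, adjusted p = 1.7e-06, edgeR), so that each preOC library held a small share of any BMM library. Slc16a9, a carnitine and creatine transporter, went from 15.5, 12.6 and 12.6 CPM to 0.484, 0.966 and 1.05 CPM (-4.04 ± 0.28, adjusted p = 3.4e-05). The lysosomal carrier Slc46a3 fell by 2.97 ± 0.13, the Golgi exchanger Slc9a7 by 2.41 ± 0.30, and the urate transporter Slc2a9 by 2.16 ± 0.13. The urea transporter Slc14a1 fell by 3.64 ± 0.26, from 1.41, 1.70 and 1.59 CPM in BMMs to 0.121, 0.123 and 0.134 CPM in preOCs, and the sugar carrier Slc45a4 by 1.99 ± 0.08. Slc48a1 fell from 955, 833 and 862 CPM to 361, 320 and 325 CPM (-1.42 ± 0.08, adjusted p = 1.8e-05).

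In the other classes, 6 of 10 sugar carriers fell and 2 rose, Slc45a3 and Slc37a2, the latter by 1.32 ± 0.11 on the log2 scale from 209 to 249 CPM in BMMs. Of 24 carriers of zinc, copper and magnesium, 5 rose and 10 fell, with the largest fall in Slc39a12 (-2.98 ± 0.29), a zinc importer at 2.17 to 3.29 CPM in BMMs. Of 20 genes of the Slc35 family, 5 rose and 9 fell, and 3 of 5 nucleoside carriers rose, among them Slc43a3, which takes up purine bases (1.86 ± 0.17). The sodium-coupled dicarboxylate transporter Slc13a3 went from 6.80, 7.29 and 6.24 CPM to 30.4, 33 and 36.3 CPM (2.27 ± 0.10, adjusted p = 8e-06, edgeR). Slc27a1, a fatty acid transporter and the highest of the lipid class, rose by 0.68 ± 0.11, and Slc29a3, a nucleoside transporter of lysosomes, fell by 0.72 ± 0.14. The scaffold gene Slc9a3r1 fell by 1.10 ± 0.06. The folate carriers Slc19a1 (1.10 ± 0.12) and Slc46a1 (0.63 ± 0.10) both rose. Of 26 tested carriers that do not have an Slc symbol, such as the Mfsd genes, 7 rose and 11 fell, and of 10 partner subunits 2 rose and 3 fell.

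In Bap1LysM cells the RANKL comparison had 3 BMM and 2 preOC libraries, and 33 of 158 tested members rose and 18 fell, beside 19.6% of all genes called (11.4% higher, 8.20% lower). Without both libraries 1, a setting chosen after the data were seen that leaves a single preOC library assumed to vary like the BMMs, 30 rose and 37 fell, beside 32.6% of all genes. With all 5 libraries, Slc9b2 (log2 fold change 6.17), Slco4a1 (5.33), Slc45a3 (5.28) and Slc4a7 (2.08) were called higher, and Slco2b1 (-7.44), Slc9a9 (-3.30) and Slc26a11 (-2.17) lower. Here Slc45a3 passed the low-count filter only through preOC libraries and Slco2b1 only through BMM libraries, so their changes are descriptions and no test. A difference between the genotypes in the response itself, tested as an interaction on replicates 1 to 3, was called for 0 of 163 members and 0 of 13635 genes by edgeR, with 23 members and 1718 genes at an unadjusted p under 0.05. DESeq2 called 3 members, Slc26a11, Slc17a9 and Slc24a3, beside 113 of all 13635 genes (0.829%). In simulated counts with the same dispersion for every gene and no deviating library, this test recovered 18.8% of genes with a log2 difference of 1. It recovered 96.2% of those with a difference of 2.

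In preOCs, fewer members differed between genotypes. Of 158 tested, 22 were higher and 13 lower in Bap1LysM (6 Bap1flox and 5 Bap1LysM libraries), beside 15.8% of all 12919 genes called, 7.12% higher and 8.67% lower. The median log2 difference was 0.02 for members and -0.01 for all genes, and 10 members that were higher and 6 that were lower differed by at least 2-fold. Differences of this size were not counted over all genes. With the replicate number as a block, 38 members were higher and 25 lower beside 32.8% of all genes. A term for the library set gave counts of 41 and 28 (33.6% of all genes), limma's voomWithQualityWeights 51 and 47 (54.9%), and replicates 4 to 6 alone 34 and 31 (33.7%). Replicates 1 to 3 alone gave 0 of 159 members and 0 of 13120 genes by edgeR, with 36 members (22.6%) and 2337 genes (17.8%) at an unadjusted p under 0.05. Without Bap1LysM library 1, 26 were higher and 21 lower (23.9% of all genes). Values of the genotypes did not overlap for 20 members, beside 9.69% of all genes.

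**Figure D2:**
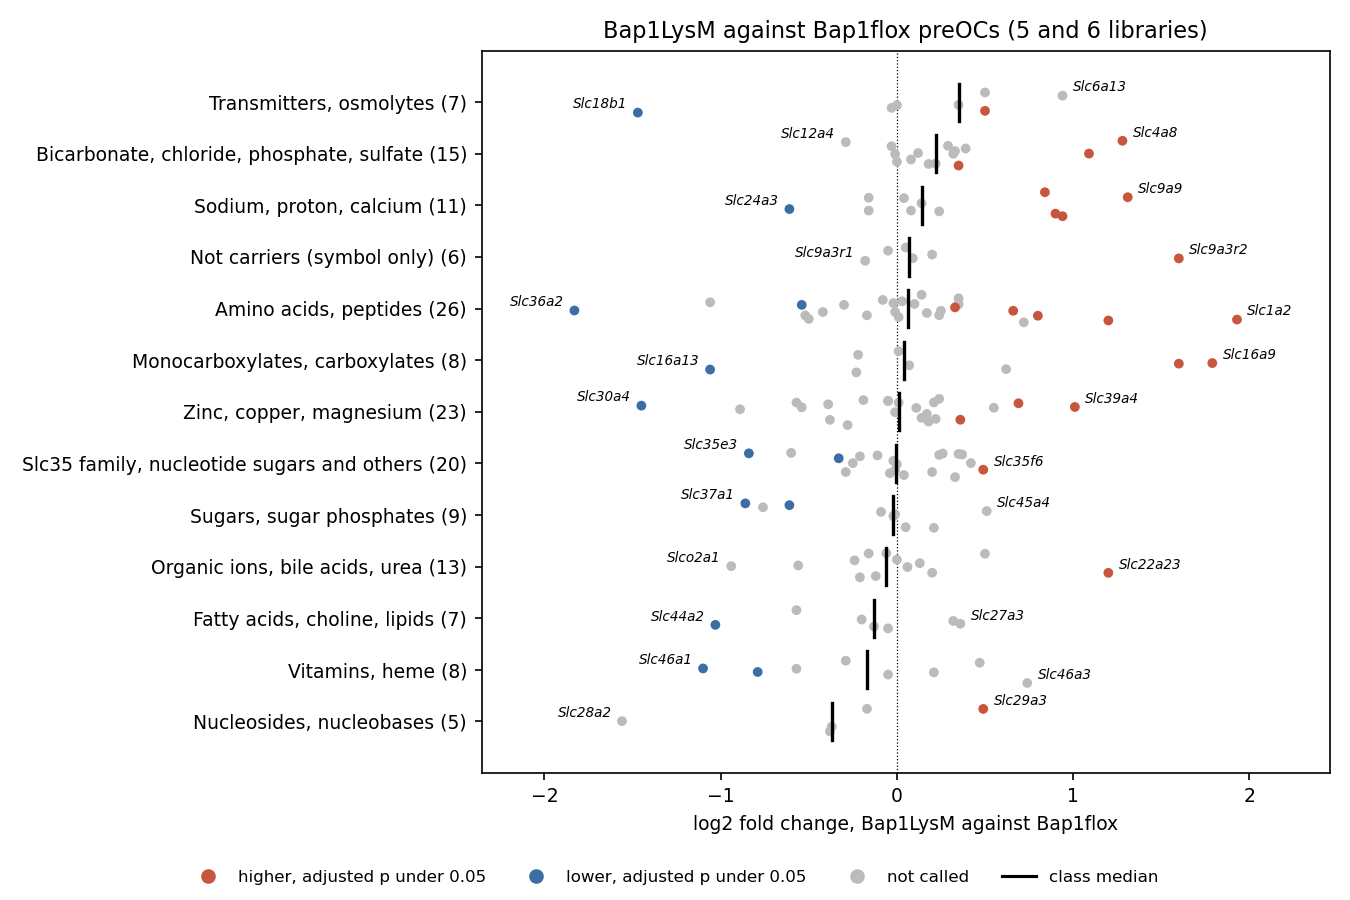
Log2 fold change of each tested member between Bap1LysM and Bap1flox preOCs (horizontal axis) by substrate class (vertical axis, number tested in parentheses), with red and blue for members higher and lower at an adjusted p under 0.05, grey for the rest and a black line at each class median. The sodium, proton and calcium class has 4 members higher and 1 lower, and the anion and phosphate class 3 higher and 0 lower by edgeR. Over all genes 7.12% were higher and 8.67% lower.

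Members higher in Bap1LysM preOCs included Slc9a9, Slc26a11 and Slc16a9, for which the RANKL values above come partly from the same Bap1flox preOC libraries, so the 2 comparisons are not independent. Slc9a9 had 15.7, 16.9 and 31 CPM as the lowest, median and highest of 6 Bap1flox libraries, and 31.6, 13.1, 72.1, 70.5 and 55.9 CPM in Bap1LysM replicates 1, 2, 4, 5 and 6 (log2 fold change 1.31 ± 0.36, adjusted p = 0.030, edgeR). Bap1LysM replicate 2 lay below all 6 Bap1flox libraries, so the genotypes overlapped, and the call held in 3 of 11 fits that left out a library. Slc26a11 had 7.06, 9.80 and 12 CPM in Bap1flox and 23.2, 14.2, 25.3, 25.7 and 16.9 CPM in Bap1LysM (1.09 ± 0.19, adjusted p = 0.0038), without overlap. Slc16a9 had 0.484, 1.02 and 2.28 CPM against 5.11, 1.78, 3.99, 5.38 and 3.80 CPM (1.79 ± 0.36, adjusted p = 0.0074), with replicate 2 again within the Bap1flox range. All of these levels remained under those of the BMMs, where Slc9a9 was at 191 to 294 CPM and Slc26a11 at 68.6 to 147 CPM.

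Among the abundant members, the amino acid transporter Slc43a2 and the taurine transporter Slc6a6 were higher. Slc43a2 had 385, 411 and 458 CPM as the lowest, median and highest of Bap1flox, and 871, 530, 783, 798 and 626 CPM in Bap1LysM (log2 fold change 0.80 ± 0.12, adjusted p = 0.0019, edgeR). The genotypes did not overlap, and replicates 4 to 6 alone gave 0.80 and replicates 1 to 3 alone 0.78. Slc6a6 had 993, 1080 and 1300 CPM against 1530, 1250, 1670, 1680 and 1630 CPM (0.50 ± 0.10, adjusted p = 0.0070), with an overlap at Bap1LysM replicate 2. Slc35f6, a lysosomal membrane protein of the Slc35 family, had 112, 116 and 120 CPM against 181, 163, 178, 166 and 132 CPM (0.49 ± 0.09, adjusted p = 0.0036). In this gene the Bap1flox libraries lay close together and below all Bap1LysM libraries.

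Several of the larger differences rested on low counts. The scaffold protein gene Slc9a3r2 had 3.73, 5.32 and 8.98 CPM in Bap1flox and 8.88, 23.7, 21.7, 17.8 and 15.4 CPM in Bap1LysM (log2 fold change 1.6 ± 0.28, adjusted p = 0.0037, edgeR). The glycine transporter Slc6a9 had 0.825, 1.79 and 2.40 CPM against 4.22, 5.38, 4.64, 3.40 and 2.74 CPM (1.20 ± 0.28, adjusted p = 0.015), without overlap. The bicarbonate transporter Slc4a8 was higher by 1.28 ± 0.34, with Bap1LysM library 1 inside the Bap1flox range, and its call held in 7 of 11 fits that left out a library. Slc1a2 had 0.161, 0.538 and 0.847 CPM against 1.13, 0.889, 3.42, 1.72 and 2.48 CPM. It became a member and entered the test only through its Bap1LysM preOC values, so its test is not given, though it is 1 of the 22 counted as higher.

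Ion and metal carriers were also among those higher. The sodium and calcium exchanger Slc8a1 had 9.20, 12.6 and 20 CPM in Bap1flox and 26.6, 10.5, 27.1, 30 and 29.6 CPM in Bap1LysM (log2 fold change 0.90 ± 0.26, adjusted p = 0.034, edgeR), with replicate 2 at the Bap1flox level, and its call held in 3 of 11 fits that left out a library. Slc24a5, a potassium-dependent sodium and calcium exchanger, had 2.39, 2.99 and 3.90 CPM against 4.86, 4.79, 7.44, 6.98 and 5.15 CPM (0.94 ± 0.17, adjusted p = 0.0048), without overlap. The zinc importer Slc39a4 had 5.27, 7.47 and 11.6 CPM against 15.9, 12.3, 21.5, 14.1 and 15.6 CPM (1.01 ± 0.20, adjusted p = 0.0060), also without overlap. Slc22a23, of the organic ion carrier family, was higher by 1.20 ± 0.26.

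Members lower in Bap1LysM preOCs included a zinc exporter, folate carriers and a choline transporter. Slc30a4, which loads zinc into vesicles, had 12.4, 14.9 and 18.1 CPM as the lowest, median and highest of Bap1flox, and 9.65, 6.22, 3.71, 3.60 and 4.06 CPM in Bap1LysM (log2 fold change -1.45 ± 0.26, adjusted p = 0.0040, edgeR). Library 1 was the highest of the Bap1LysM libraries, and without it the value was -1.78. Slc44a2, a choline transporter, had 47.7, 53.2 and 60.5 CPM against 44, 22.6, 23.7, 22.7 and 18.8 CPM (-1.03 ± 0.20, adjusted p = 0.0056), and -1.30 without library 1, which stood apart from the other Bap1LysM libraries. The genotypes did not overlap in either gene.

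The proton-coupled folate transporter Slc46a1 had 14.1, 18.1 and 20.9 CPM in Bap1flox and 8.82, 12, 7.80, 6.26 and 7.14 CPM in Bap1LysM (log2 fold change -1.10 ± 0.18, adjusted p = 0.0023, edgeR). The reduced folate carrier Slc19a1 had 16.6, 22.3 and 27.3 CPM against 15.5, 18.2, 12, 9.47 and 9.44 CPM (-0.79 ± 0.20, adjusted p = 0.020), with an overlap at Bap1LysM replicate 2 and a call in 9 of 11 fits that left out a library. Low-level members without overlap between genotypes included Slc18b1, a polyamine carrier of vesicles (2.54 to 3.41 against 0.553 to 1.48 CPM, log2 fold change -1.47 ± 0.23). Slc36a2, a proton-coupled amino acid transporter, had 2.00 to 4.31 against 0.617 to 1.17 CPM. It entered the test only through its Bap1flox preOC values, so its test is not given, though it is 1 of the 13 counted as lower. The Slc35 family gene Slc35e3 had 11.2, 13 and 13.5 CPM against 9.87, 7.65, 6.28, 6.09 and 5.59 CPM (-0.84 ± 0.16, adjusted p = 0.0048, edgeR), and its genotypes lay apart. The neutral amino acid transporter Slc38a1, at a higher level, had 122, 132 and 137 CPM against 101, 109, 73.2, 79.5 and 88.4 CPM (-0.54 ± 0.11, adjusted p = 0.0065).

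**Figure D3:**
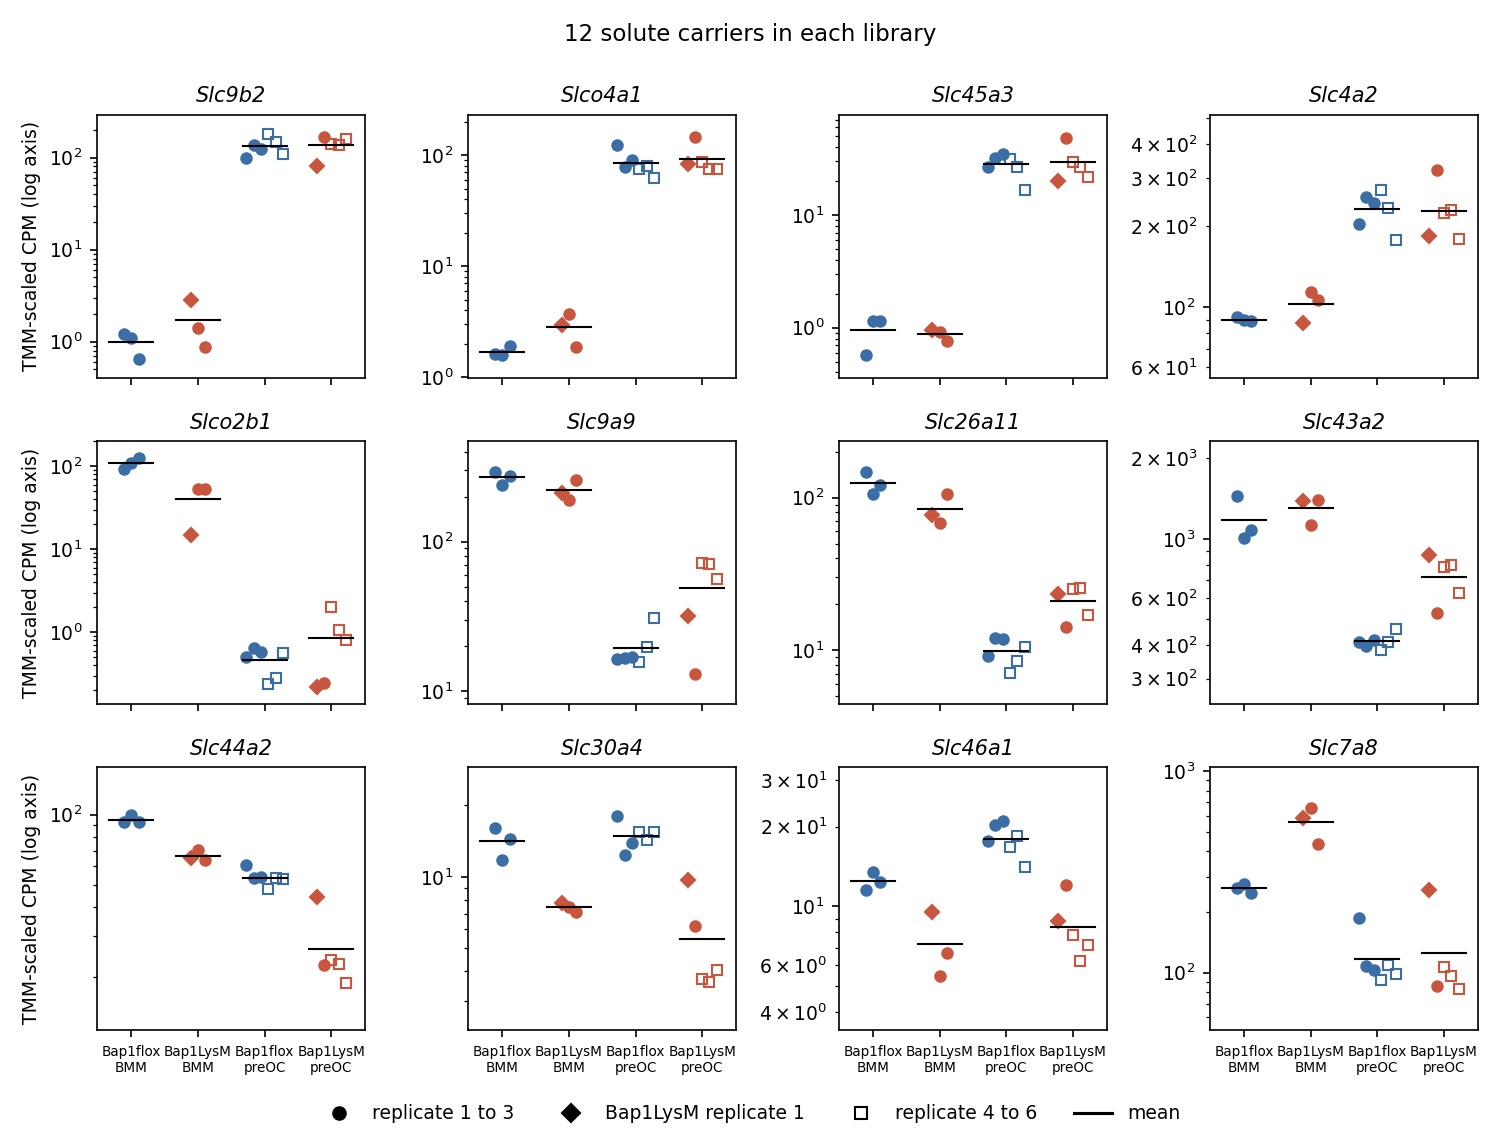
TMM-scaled CPM (log axis) of 12 members in each library of the 4 groups, with filled circles for replicates 1 to 3, diamonds for Bap1LysM replicate 1, open squares for replicates 4 to 6 and a line at the group mean. The upper row shows 4 members raised by RANKL whose preOC genotypes overlap, and Slc44a2 and Slc30a4 lie lower in Bap1LysM in both states.

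By class, 4 of 11 sodium, proton and calcium carriers were higher and 1 lower in Bap1LysM preOCs, beside 7.12% and 8.67% of all genes. The calls of Slc9a9 and Slc8a1 held in 3 of 11 fits that left out a library, that of the lower Slc24a3 in 5 and that of Slc24a5 in 11. Of 26 amino acid carriers, 5 were higher, Slc1a2 among them, and 2 lower, Slc36a2 among them. Of 15 anion carriers, 3 were higher and 0 lower by edgeR. An unadjusted p under 0.05 was found for 5 of the 15, beside 3932 of all 12919 genes. Of 8 vitamin and heme carriers, 0 were higher and 2 lower, both of them folate carriers, and 5 of the 8 had an unadjusted p under 0.05. Of 25 carriers without an Slc symbol, 5 were higher and 1 lower. The carriers best known from osteoclasts mostly showed no call. Slc9b2 differed by 0.04 ± 0.19 on the log2 scale, Slc4a2 by -0.03 ± 0.16, Slc20a1 by 0.00 ± 0.10, Slc20a2 by 0.18 ± 0.11, Slc4a7 by 0.22 ± 0.15, Slc37a2 by 0.21 ± 0.14, Slc1a5 by -0.01 ± 0.23, Slc7a5 by -0.50 ± 0.28 and Slc38a2 by 0.17 ± 0.17, while Slc8a1 of the same list was called higher. A missed threshold does not show that these levels were alike.

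The RANKL response of Bap1flox replicates 1 to 3 and the genotype difference of preOC replicates 4 to 6 share no library and could be set side by side. Of 67 members lowered by RANKL, 22 (32.8%) were higher and 10 (14.9%) lower in Bap1LysM, beside 22.2% and 15.9% of the 4086 genes lowered by RANKL. Of 46 members raised by RANKL, 5 (10.9%) were higher and 11 (23.9%) lower, beside 8.01% and 24.6% of 4168 genes. The median log2 difference of the lowered members was 0.08, equal to that of all lowered genes, and that of the raised members was -0.06 against -0.11. Slco2b1, near 0 in Bap1flox preOCs (0.240 to 0.565 CPM in replicates 4 to 6), had 2.00, 1.05 and 0.802 CPM in Bap1LysM. In replicates 1 to 3 the order was the other way, with 0.504, 0.650 and 0.573 CPM in Bap1flox and 0.217 and 0.247 CPM in Bap1LysM. It is among the 22, though it passed the low-count filter in replicates 4 to 6 only through Bap1LysM libraries. Some members raised by RANKL were also higher in Bap1LysM in replicates 4 to 6, among them the GABA transporter Slc6a13 (1.46), Slc4a8 (1.59) and Slc9a3r2 (1.93), all at low levels. Slc6a13, at 1.27, 0.542 and 0.869 CPM in these Bap1flox libraries, passed the low-count filter there only with the Bap1LysM libraries. Its difference is thus a description and no test. The members' medians had the same sign as those of all genes with the same RANKL response.

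**Figure D4:**
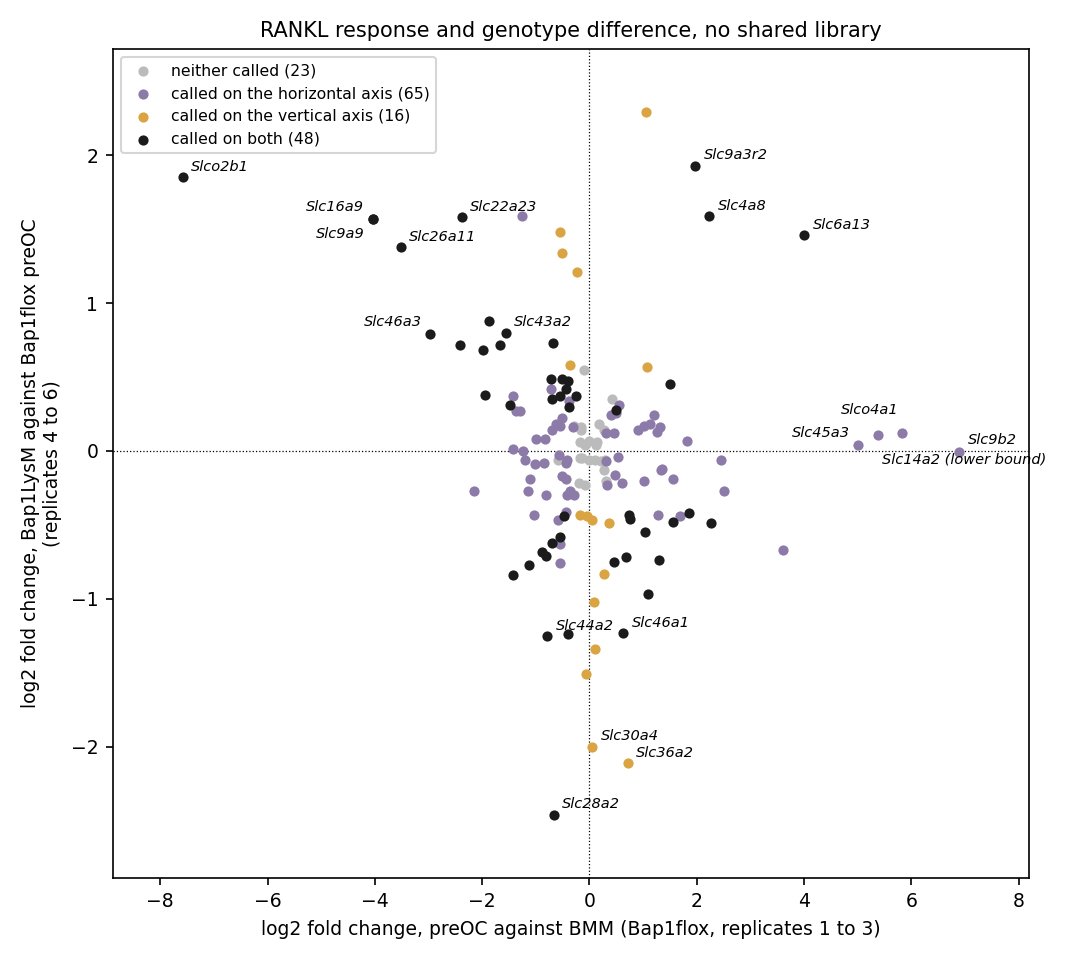
Log2 fold change of 152 members with RANKL in Bap1flox replicates 1 to 3 (horizontal axis) and between Bap1LysM and Bap1flox preOCs of replicates 4 to 6 (vertical axis), coloured by which of the 2 adjusted p-values lay under 0.05, with Slc14a2 at its lower bound. The members with the largest rises, Slc9b2, Slco4a1 and Slc45a3, lie near 0 on the vertical axis, while Slco2b1, Slc9a9, Slc16a9 and Slc26a11 lie at the upper left.

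In BMMs, before RANKL, 4 of 157 tested members were higher and 9 lower in Bap1LysM, beside 5.32% of all 13028 genes called (1.31% higher, 4.01% lower). With the replicate number as a block, 10 were higher and 21 lower beside 16.2% of all genes (5.47% higher, 10.7% lower). Without Bap1LysM library 1, 2 were higher and 5 lower beside 2.84% (0.478% higher, 2.37% lower). Values of the genotypes did not overlap for 57 members, beside 34.2% of all genes. Of the 10 members named here, 0 kept their call in all 6 fits that left out a library, and each lost its call in at least 1 such fit.

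Members higher in Bap1LysM BMMs included carriers of large neutral and aromatic amino acids. Slc7a8, a large neutral amino acid transporter, had 264, 276 and 248 CPM in the Bap1flox libraries against 586, 654 and 437 CPM in Bap1LysM (log2 fold change 1.09 ± 0.16, adjusted p = 0.022, edgeR). Slc16a10, which carries aromatic amino acids, was at 83.2, 76.4 and 81.0 CPM against 120, 123 and 116 CPM (0.58 ± 0.07, adjusted p = 0.016). Both genotype ranges lay apart, and in preOCs the same genes differed by 0.10 ± 0.31 and 0.01 ± 0.18. The Slc35 family genes Slc35g1 (2.69, 3.14 and 2.81 against 5.98, 7.46 and 4.60 CPM) and Slc35d1 (11.3, 11.3 and 11 against 16.6, 17.2 and 15.7 CPM) were also higher, by 1.06 ± 0.22 and 0.55 ± 0.10 on the log2 scale.

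Of 10 sugar and sugar phosphate carriers, 4 were lower in Bap1LysM BMMs and 0 higher by edgeR, beside 4.01% and 1.31% of all genes. An unadjusted p under 0.05 was found for 5 of the 10, beside 3416 of all 13028 genes. Without Bap1LysM library 1, 2 of the 10 were lower, and with the replicate block 4 were lower and 1 higher. Slc37a1, a glucose-6-phosphate exchanger of the endoplasmic reticulum, measured 13.8, 11.7 and 13.1 CPM in Bap1flox against 6.20, 4.42 and 4.84 CPM in Bap1LysM (log2 fold change -1.32 ± 0.17, adjusted p = 0.016, edgeR). Its relative Slc37a3 was at 33.2, 26.5 and 27.3 against 20.6, 18.3 and 17 CPM (-0.64 ± 0.13, adjusted p = 0.044). Slc50a1, a sugar transporter also known as SWEET1, was at 27.1, 29.3 and 31.5 against 22, 17.1 and 19.7 CPM (-0.58 ± 0.12, adjusted p = 0.044). Slc17a9, the vesicular nucleotide transporter, and Slc22a17, a receptor for lipocalin 2, were lower by 0.63 and 1.25 on the log2 scale, though Slc22a17 lay at 1.39 to 4.76 CPM.

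Of 151 members tested in both states, 5 were lower in Bap1LysM in both, and 0 were higher in both and 0 opposite, beside 224, 47 and 4 of 12418 genes. The 2 comparisons share no library. Whether same-numbered BMM and preOC libraries shared an animal is not known, so they may not be independent. The members were Slc44a2, Slc50a1, Slc37a1, Slc30a4 and Slc16a13, a monocarboxylate transporter. The count rests on the BMM calls, of which 0 remained by edgeR without Bap1LysM library 2 or Bap1flox library 2 or 3, and without Bap1LysM BMM library 1 the call in both states held for 2 of the 5, Slc37a1 and Slc50a1. Slc44a2 was at 92.9, 100 and 92.9 CPM in Bap1flox BMMs and 65.3, 70.2 and 63.7 CPM in Bap1LysM (log2 fold change -0.53 ± 0.08, adjusted p = 0.022, edgeR). Slc30a4 was at 16.1, 11.8 and 14.4 against 7.77, 7.48 and 7.10 CPM (-0.93 ± 0.15, adjusted p = 0.025), and Slc16a13 at 14.9, 15.1 and 14.3 against 10.1, 10.6 and 10.7 CPM (-0.50 ± 0.10, adjusted p = 0.041). In these 3 genes the BMM library 1 of Bap1LysM lay with the other Bap1LysM libraries, whereas the preOC library 1 was the highest of its group.

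**Figure D5:**
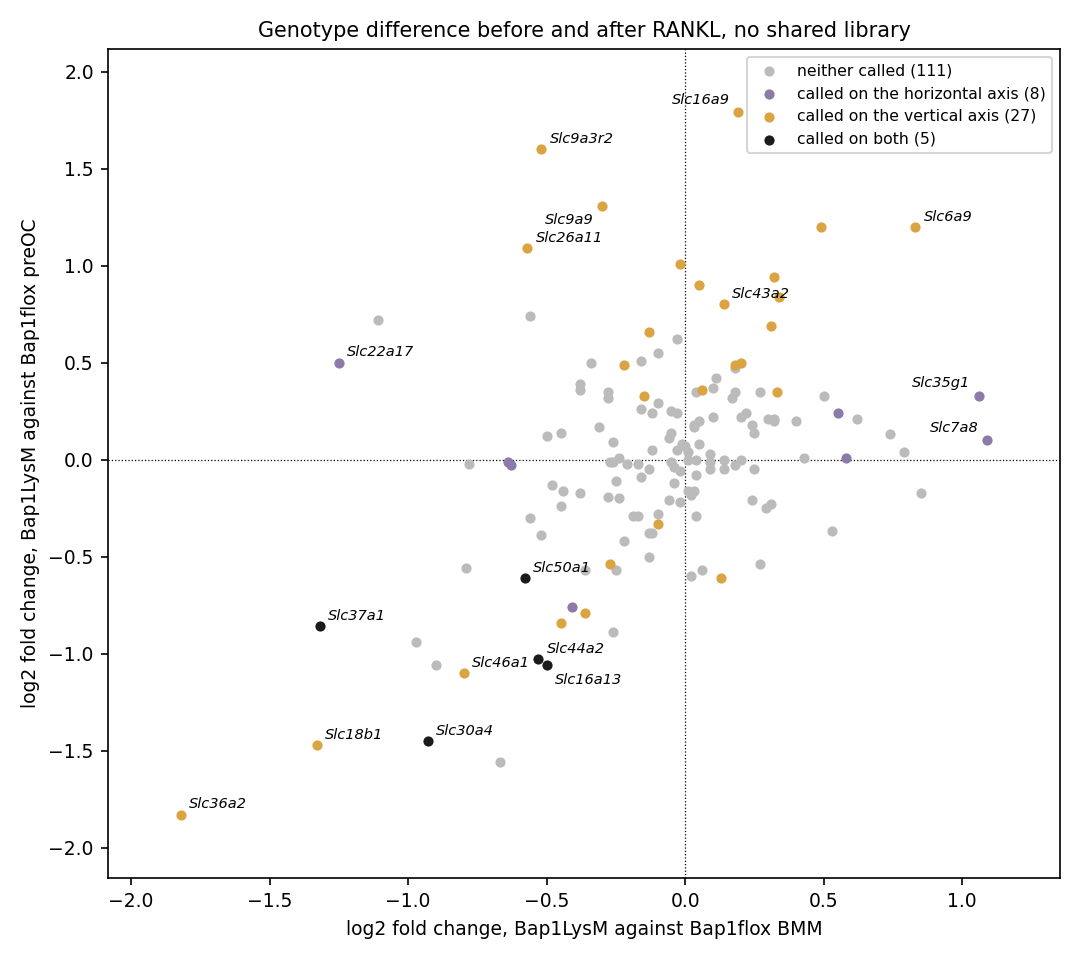
Log2 fold change of 151 members between Bap1LysM and Bap1flox in BMMs (horizontal axis) and preOCs (vertical axis), coloured by which adjusted p-values lay under 0.05. The 5 members called in both lie at the lower left, Slc7a8 lies at 0.10 on the vertical axis, and Slc9a9, Slc26a11 and Slc9a3r2 lie at the upper left.

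The purine nucleoside transporter Slc28a2, named after its values were seen, differed between library 1 and the other Bap1LysM libraries. It was at 11.7 CPM in Bap1LysM preOC library 1 and at 1.65, 1.37, 2.17 and 1.66 CPM in the other 4, against 7.24, 11.6 and 13.6 CPM as the lowest, median and highest of Bap1flox. The log2 fold change was -1.56 ± 0.55 (adjusted p = 0.076, edgeR) over all libraries and -2.69 (adjusted p = 6.2e-05) without library 1. The BMM values were 17.6, 20.5 and 20.1 CPM for Bap1flox against 20.4, 7.77 and 8.55 CPM for Bap1LysM, again with library 1 at the Bap1flox level.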

How the data were processed

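The deposited file of each library gave, per gene, a raw read count, CPM and RPKM. Per the study's methods, the authors aligned reads with STAR 2.5.1a to GRCm38 and counted uniquely aligned, unambiguous reads with featureCounts 1.4.6-p5. The deposited CPM chose the members and the deposited count entered all tests. Printed levels are CPM and RPKM computed here from the deposited counts and gene lengths with TMM scaling. Symbols came from GENCODE M21 (40340 of 41388 genes), and 355 rRNA genes were left out.

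Genes above 1 CPM in at least 2 libraries (4 of 11 in preOCs) were tested with edgeR 4.0.16 (quasi-likelihood, R 4.3.3), with limma 3.58.1 and DESeq2 1.42.0 as alternatives, and p-values were adjusted over all genes tested. The members, classes and lists were chosen with earlier results of these data known. Named members were the largest called changes of each comparison (up to 12 per direction, 6 in BMMs), the highest member of each class, an osteoclast list, the non-carriers and genes at the edge of the rule, with 1 of these members not reported here. Tests on simulated counts recovered 94.7% (preOC genotype, 12919 genes), 79% (BMM genotype, 13028 genes) and 71.7% (RANKL in Bap1flox, 13412 genes) of genes with a log2 change of 1. The simulation gave every gene the same dispersion and held no library set and no deviating library. These shares may therefore overstate recovery in the real data.

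Same-numbered libraries deviated together (correlations 0.24 to 0.37 for RANKL in Bap1flox and 0.36 to 0.54 for genotype in BMMs), so the numbers were taken as pairs in the replicate block. That block is an alternative fit. The main fits, which gave the values printed for named members, ignored the pairing. For preOCs the correlations were 0.39 to 0.73, but -0.15 to 0.44 within a library set. The study describes the preOC libraries as biologically independent. For the BMM libraries the sources used here do not say so, and p-values then measure only the spread between these libraries. No 2 libraries of a group agreed within sampling noise.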

Additional observations from a re-analysis of the deposited data

Results flagged for a closer look

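Among 136 gene and group pairs with 4 to 10 libraries, 10 held a library far from the others of its group, where chance gives about 1 in 20. In Bap1LysM preOC library 1, Slc16a10 was at 199 CPM (group median 105), Slc7a8 at 256 CPM (median 96.0) and Slc44a2 at 44 CPM (median 22.7). In Bap1LysM preOC library 2, Slc1a5 was at 354 CPM (median 184), Slco4a1 at 145 CPM (median 83.4), Slc6a17 at 10.3 CPM (median 4.35) and Slc8a1 at 10.5 CPM (median 27.1). In Bap1flox preOCs, Slc7a8 was at 187 CPM in library 1 (median 106), Slc9a9 at 31 CPM in library 6 (median 16.9), and the urea transporter Slc14a1 at 0.347 CPM in library 5 (median 0.122).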

How the results depend on the processing

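The count of solute carriers called for RANKL in Bap1flox stayed within 109 to 126 when 1 library was left out. For RANKL in Bap1LysM it was 3 to 61 with 1 library left out, 3 without BMM library 2, 8 without BMM library 3, 24 without BMM library 1 and 20 without preOC library 2, and 92 with all 17 libraries in one fit (49.3% of all genes, against 19.6%). For genotype in preOCs it was 22 to 52 with 1 library left out (22 without Bap1LysM library 4 or 5), 98 by voomWithQualityWeights (54.9% of all genes, against 15.8%), 63 with the replicate block (32.8%), 69 with a term for the library set (33.6%), 65 in replicates 4 to 6 alone (33.7%) and 0 in replicates 1 to 3 alone by edgeR (36 at an unadjusted p under 0.05). Upper-quartile scaling made 51.4% of the preOC calls higher in Bap1LysM, against 62.9%. For genotype in BMMs it was 0 to 9 with 1 library left out, and 0 without Bap1LysM library 2, Bap1flox library 2 or Bap1flox library 3, 4 without Bap1flox library 1 and 7 without Bap1LysM library 1. It was 32 by DESeq2 (15.9% of all genes, against 5.32%), 31 by voomWithQualityWeights (13.6%), 31 with the replicate block (16.2%) and 6 with all 17 libraries in one fit (5.02%). The interaction gave 3 by DESeq2 (0.829% of all genes), 2 with all 17 libraries in one fit (2.18%) and 0 to 2 with 1 library left out. No named member changed direction, and the call was lost in 59 and kept in 464 combinations of named member and alternative in preOCs, and lost in 55 and kept in 85 in BMMs. The causes were not tested.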
